A study of Mus musculus with 8 samples.

Results

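GABA and glycine are the inhibitory transmitters of the central nervous system, and 29 genes of the synapses that use them were followed in the mouse hippocampus after overexpression of miR-708-5p. They were listed by name and role, with earlier results of these data known, from 40659 genes in the deposited table: GABA-A, GABA-B and glycine receptor subunits, the genes of GABA synthesis, loading, uptake and breakdown, chloride transporters, inhibitory scaffold and auxiliary proteins, and an interneuron transcription factor. Male C57BL/6JRj wild-type mice received a recombinant adeno-associated virus (rAAV) in the dorsal and ventral hippocampus at postnatal week 7 or 8. The virus carried a control hairpin (hpCTL, n = 4) or a hairpin that yields miR-708-5p (hp708, n = 4), each under the human synapsin promoter, which is active in neurons. RNA was taken from whole hippocampi, 4 weeks after surgery per the study's methods. The labels give postnatal week 12 or 13, which does not fully match the age at surgery plus 4 weeks. Each library thus mixed transduced neurons with untransduced neurons, glia and vessel cells. All mice of both groups therefore underwent surgery and received a virus.

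At an inhibitory synapse, GABA made by glutamate decarboxylases is loaded into vesicles, released, and opens GABA-A receptors, which are pentamers that pass chloride. The direction of the current depends on chloride transporters, gephyrin holds the receptors in place through neuroligin 2 and small auxiliary proteins, and GABA-B receptors act more slowly through G proteins. In the hippocampus, GABA is released by scattered interneurons, while most of the receptors lie on pyramidal and granule cells, and some transporters and enzymes lie in astrocytes.

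A microRNA represses transcripts mainly by pairing its seed, bases 2 to 8, with a site in a 3' untranslated region (UTR). The mature sequence (RefSeq) is shown first, with its seed in capitals, followed by the 7-base matches found in the members' longest annotated 3' UTRs, because these are the places where the overexpressed microRNA could pair with the members by its seed. Capitals in the sites mark the match on the transcript strand, which was AGCTCCT (pairing with bases 2 to 8) or GCTCCTA (bases 2 to 7 followed by A). A site that holds both forms would be counted once.

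mmu-miR-708-5p: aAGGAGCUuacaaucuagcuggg
Gabrg3, first site (chr7:56370470-56370476, minus strand, GRCm39): agttttccctgAGCTCCTgtcaaatggcg
Gabrg3, second site (chr7:56367419-56367425, minus strand, GRCm39): ttttcttaagcAGCTCCTggactcagcaa
Gphn (chr12:78551707-78551713, plus strand, GRCm39): atagtatgtctGCTCCTAtatcacaggta
Lhx6 (chr2:35972369-35972375, minus strand, GRCm39): ctttgatttttGCTCCTAatgatcaaaac

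A site was found in 3 of 29 members (10.3%), against 3927 of 14808 tested genes with a 3' UTR (26.5%), although the members' 3' UTRs were longer (median 3171 bases, against 1865). The Gabrg3 sites lay in 1 of its 2 annotated transcripts with a 3' UTR, the Gphn site in 1 of 71, and the Lhx6 site in 7 of 8. The other 26 members had no such match in the window searched. A match is a description of the sequence and not evidence of binding.

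The libraries held 22606824 to 28462428 counted reads. The animal of hp708 replicate 1 carries the hp708 label here but appears among the control animals in a supplementary source table of the study, so results are given with and without it. Mitochondrial transcripts took 3.49 to 4.07% of counts. Levels are given as CPM, the count of a gene scaled to the library's size. The hippocampal markers were present, with 619 to 737 summed CPM for CA1 pyramidal neurons and 412 to 651 for dentate granule cells, and none was at 0 in all libraries. The summed CPM of 10 subiculum and cortex markers were 223 to 311 in hpCTL and 289 in hp708 replicate 1, but 202, 202 and 219 in hp708 replicates 2 to 4. The summed CPM of 8 choroid plexus markers ranged from 55.9 to 2079 in hpCTL and from 109 to 4440 in hp708. Polyadenylated RNA libraries do not measure the mature microRNA, so its level could not be checked.

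Few of the inhibitory synapse genes were called as different between the groups, and few of all tested genes were. All 29 passed the filter on low counts, and 0 of 29 passed a false discovery rate (FDR) of 0.05 over all genes when the quasi-likelihood test of edgeR was run with 3 estimated unknown factors (surrogate variables), against 0.0058% of 17252 tested genes. At an unadjusted p below 0.05, 2 members were higher in hp708 (Gabbr2 and Shisa7, 6.9% of members, against 2.82% of tested genes) and 1 was lower (Gabra3, 3.45%, against 4.87%). DESeq2 with the same factors gave the same counts (1.86% of tested genes higher and 3.16% lower). The likelihood ratio test of edgeR with them gave 0 higher and 1 lower (2.05% and 3.96% of tested genes), with p values of 0.085 for Gabbr2 and 0.053 for Shisa7. In DESeq2 and in that test 0 members passed the FDR, against 0.556% and 0.736% of tested genes. Without factors 0 members reached an unadjusted p below 0.05 in the quasi-likelihood test, against 1.81% of tested genes. The median log2 fold change of the members was 0.04, beside -0.01 over all tested genes, and 23 were above 0 and 6 below. CPM ranges of hpCTL and hp708 overlapped for every member, and 1.51% of tested genes had ranges that did not. In these bulk libraries, fewer cells of a type and less RNA per cell cannot be told apart.

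Without hp708 replicate 1, the picture was different for a subset. With 3 surrogate variables 1 member then passed the FDR (Gabra3, 3.45% of members, against 0.321% of tested genes). At an unadjusted p below 0.05, 7 members were lower in hp708 (24.1%, against 6.72%), namely Gabra3, Gabrg3, Slc6a11, Glra2, Glra3, Kctd8 and Lhx6, and 2 were higher (6.9%, against 5.44%), namely Gabra5 and Slc12a2. Without surrogate variables, 0 members passed the FDR in edgeR's quasi-likelihood test, and Gabra3 and Kctd8 were the 2 lower members at an unadjusted p below 0.05 (6.9%, against 2.05%), with 0 higher (1.37% of tested genes).

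**Figure D1:**
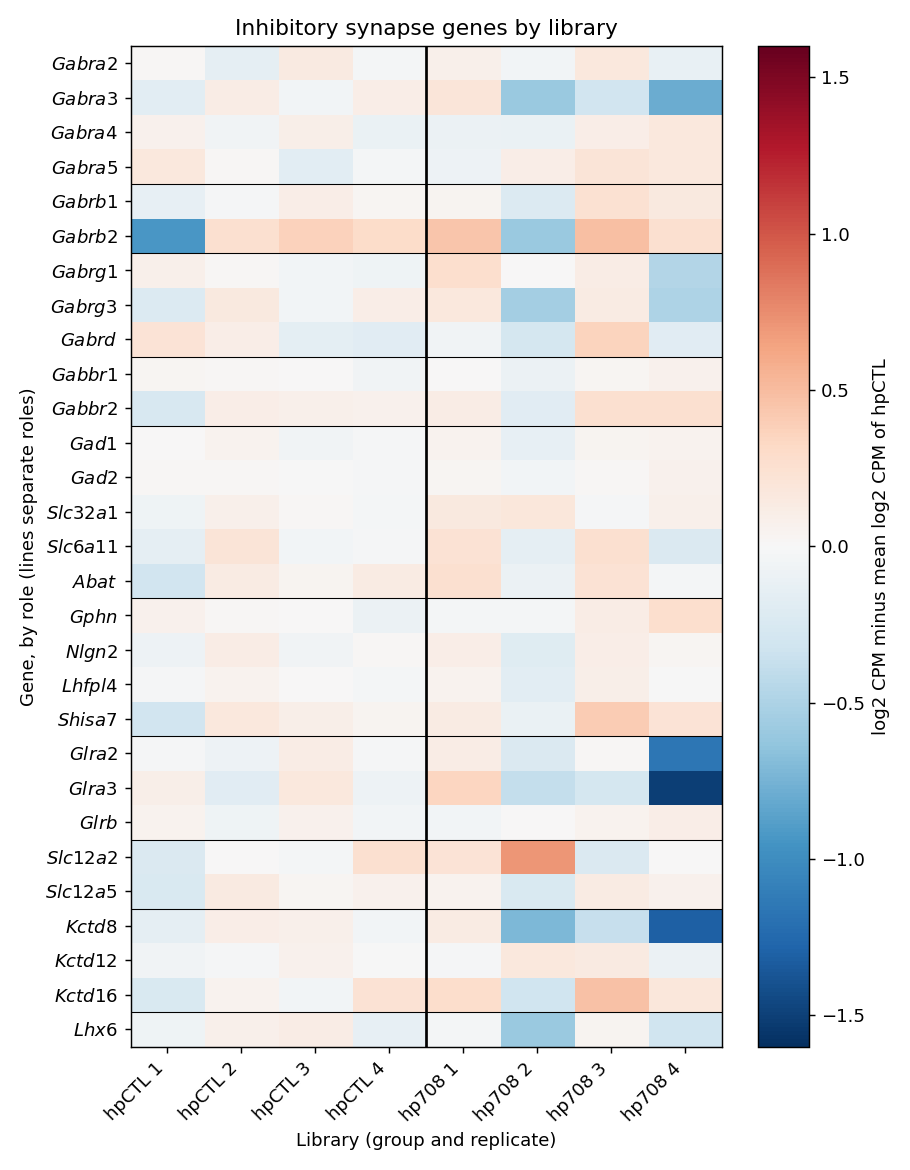
log2 CPM of the 29 inhibitory synapse genes (rows, by role) in the 8 libraries (columns, by group and replicate), each as the difference from the hpCTL mean of its gene, from blue (lower) to red (higher). The lowest cells of Kctd8, Glra2 and Glra3 are those of hp708 replicate 4, while the Gabrb2 row is lowest in hpCTL replicate 1 (26.3 CPM) and next lowest in hp708 replicate 2 (33.2 CPM).

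Levels of different genes were compared as CPM per kilobase of exon. Gabbr1, which holds the agonist site of the GABA-B receptor, was highest at 71.9 and was followed by Slc12a5 at 55.6, with ranges that did not overlap. Nlgn2 (37.8), Gabbr2 (34.3), Kctd12 (31.9), Shisa7 (31.7) and Gad1 (29.6) followed, and each of these neighbours overlapped in range. Kctd8 (1.34) and Glra3 (0.347) were lowest. Among the GABA-A subunits, the order of the CPM per kilobase was Gabra5 (20.4), Gabra2 (12.6), Gabrb1 (11.1), Gabra4 (9.03), Gabra3 (8.82), Gabrb2 (5.06), Gabrd (2.71), Gabrg3 (1.79) and Gabrg1 (1.57). In that order only Gabra5 with Gabra2 and Gabrd with Gabrg3 were neighbours whose ranges over the 8 libraries did not overlap.

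**Figure D2:**
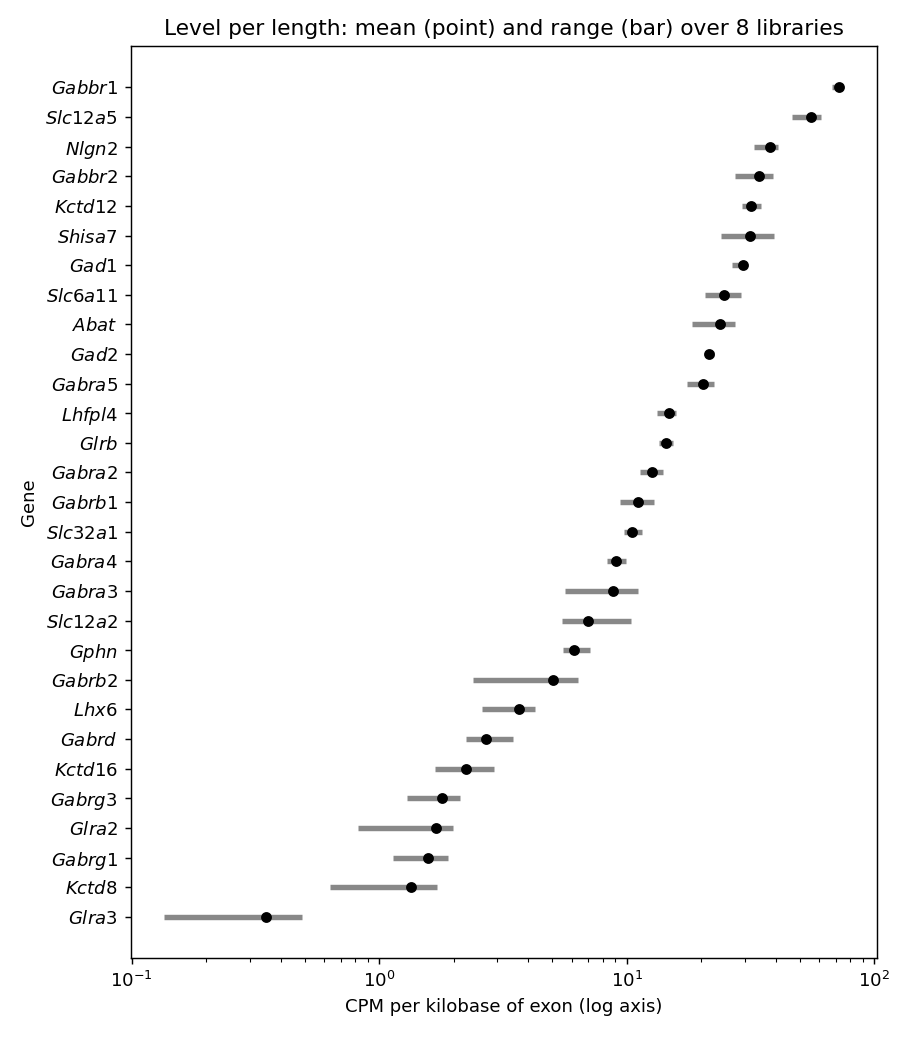
Mean level (point) and range over 8 libraries (bar) of each of the 29 genes in CPM per kilobase of exon, on a log axis. Gabbr1 is at the top with 71.9 and Glra3 at the bottom with 0.347.

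Among the alpha subunits of the GABA-A receptor, which largely set where the receptor sits and how it responds to drugs, Gabra3 was the member with the lowest p of all 29. Gabra3 (ENSMUSG00000031343, chrX:71476275-71700723, minus strand, GRCm39) measured 60.0, 73.3, 65.4 and 72.7 CPM in hpCTL replicates 1 to 4 and 77.1, 44.9, 54.6 and 38.9 CPM in hp708 replicates 1 to 4. hp708 replicates 2 to 4 lay below every hpCTL library, and hp708 replicate 1 lay above every one. Group means were 67.9 ± 6.37 and 53.9 ± 16.8 CPM (SD, n = 4 each), and the log2 fold change was -0.26 (SE 0.09, unadjusted p = 0.0222, FDR 0.592 by edgeR). Without hp708 replicate 1 it was -0.67 (SE 0.08, FDR 0.0276 by edgeR), in a fit where 3 surrogate variables left few degrees of freedom. Without surrogate variables as well it was -0.55 (SE 0.12, unadjusted p = 0.00164, FDR 0.998 by edgeR). The FDR lay between 0.0276 and 1 over the 30 alternatives tried. An unadjusted p below 0.05 was reached in 14 of these 30, each time with a lower level in hp708. Without hp708 replicate 4, the library with the lowest level, it was -0.14 (unadjusted p = 0.0975 by edgeR), and with surrogate variables estimated from CPM instead of counts it was -0.43 (unadjusted p = 0.000254 by edgeR).

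The lower Gabra3 level went together with the subiculum and cortex markers, whose sum was also lower in hp708 replicates 2 to 4 than in all other libraries. hpCTL replicate 1 was close to these in marker sum, at 223, but had Gabra3 at 60.0 CPM. Of the 10 markers, 9 were tested, and 4 of these were lower at an unadjusted p below 0.05 (Nts, Slc17a6, Cplx3 and Fezf2) and 0 higher, against 4.87% and 2.82% of tested genes. In the fit without hp708 replicate 1, in which Gabra3 passed the FDR, 7 of the 9 were lower and 0 higher (6.72% and 5.44% of tested genes), and 1 passed the FDR. None of the 10 was at 0 in all libraries. With the mean log2 CPM of the tested markers as a covariate and no surrogate variables, the log2 fold change of Gabra3 was 0.01. With neither the covariate nor surrogate variables it was -0.33. The part of this tissue in the result was not tested.

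Gabra2, a synaptic subunit, ranged from 102 to 126 CPM over the 8 libraries. Gabra4, which pairs with the delta subunit in dentate granule cells, ranged from 83.8 to 101 CPM. Gabra5, an extrasynaptic subunit abundant in hippocampal pyramidal neurons, ranged from 158 to 204 CPM and had a log2 fold change of 0.10 (0.19 without hp708 replicate 1, unadjusted p = 0.0216, FDR 0.303 by edgeR). It was 0.0086 without hpCTL replicate 3, and without both hp708 replicate 1 and surrogate variables the unadjusted edgeR p was 0.111. The exons of Gabra4 overlap those of Gabrb1 over 1% of their length on the opposite strand, and 6.28% of the exon length of Gabra5 overlaps another gene. Whether counting used strand is not given in the sources used here. As a share of the 4 alpha subunit genes listed here, which are not all of the family, and per kilobase, Gabra5 made up 38.6% ± 2.91 in hpCTL and 41.7% ± 3.95 in hp708, and Gabra3 19.3% ± 2.17 and 15.3% ± 4.48 (SD, n = 4 each). The log2 ratio of Gabra5 to Gabra2 was 0.66 ± 0.22 in hpCTL and 0.74 ± 0.19 in hp708, a difference of 0.08 (exact permutation test, two-sided, p = 0.571, adjusted 0.714 over 4 ratios). The smallest p that 4 against 4 allows is 0.0286.

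The beta subunits form the GABA binding site together with alpha subunits. Gabrb2 (ENSMUSG00000007653, chr11:42310493-42523417, plus strand, GRCm39) was 26.3, 59.9, 64.9 and 61.7 CPM in hpCTL and 68.2, 33.2, 70.1 and 59.9 CPM in hp708. One library of each group, hpCTL replicate 1 and hp708 replicate 2, lay far below the other 6, and the groups overlapped. The log2 fold change was 0.16 (SE 0.08, unadjusted p = 0.0769, FDR 0.697 by edgeR) and turned to -0.23 without hp708 replicate 1 and to -0.03 without hpCTL replicate 1. Gabrb1 ranged from 158 to 217 CPM with a log2 fold change of 0.07.

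The gamma and delta subunits place the receptor in or outside the synapse. Gabrg3, which carries both AGCTCCT matches printed above, was 19.3, 24.9, 21.7 and 24.0 CPM in hpCTL and 25.2, 15.4, 24.6 and 15.9 CPM in hp708. Only hp708 replicates 2 and 4 lay below all hpCTL libraries. Its log2 fold change was -0.07 (SE 0.12, FDR 0.926 by edgeR) and -0.44 without hp708 replicate 1 (SE 0.12, unadjusted p = 0.00675, FDR 0.192 by edgeR). With surrogate variables from CPM it was -0.22 (unadjusted p = 0.011 by edgeR). It turned to 0.01 without hp708 replicate 4 and to 0.02 without hpCTL replicate 2. With no surrogate variables it was -0.15, and 0.08 once the mean log2 CPM of the subiculum and cortex markers was added as covariate. Gabrg3, Glra2, Glra3 and Lhx6 are given by library because of their values without hp708 replicate 1, and were thus chosen after those were seen. Gabrg1 ranged from 11.5 to 19.2 CPM, and Gabrd, the extrasynaptic delta subunit, from 14.0 to 21.8 CPM, with log2 fold changes of 0.07 and 0.04.

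GABA-B receptors are obligate pairs of the Gabbr1 and Gabbr2 products. Gabbr2 (ENSMUSG00000039809, chr4:46662244-46991971, minus strand, GRCm39) was 226, 292, 286 and 285 CPM in hpCTL and 295, 238, 324 and 323 CPM in hp708. The groups overlapped, since hp708 replicate 2 was below 3 of the hpCTL libraries and hpCTL replicate 1 was lowest of all. The log2 fold change was 0.11 (SE 0.04, unadjusted p = 0.0389, FDR 0.632 by edgeR), 0.03 without hp708 replicate 1, and 0.07 without hpCTL replicate 1 (unadjusted p = 0.247). It was 0.12 without surrogate variables, with an unadjusted edgeR p of 0.352. Gabbr1 was among the steadiest genes, between 632 and 705 CPM, with a coefficient of variation (CV) over the 8 libraries of 3.49% that was higher than that of only 1.14% of tested genes. The log2 ratio of Gabbr1 to Gabbr2 was 1.31 ± 0.19 in hpCTL and 1.20 ± 0.14 in hp708 (SD, n = 4 each), a difference of -0.11 (exact permutation test, two-sided, p = 0.457, adjusted 0.714).

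The KCTD proteins bind the GABA-B receptor and shape its kinetics. Kctd8 (ENSMUSG00000037653, chr5:69266628-69499057, minus strand, GRCm39) was 4.82, 5.73, 5.62 and 5.14 CPM in hpCTL and 5.84, 3.22, 4.13 and 2.15 CPM in hp708. As for Gabra3, hp708 replicates 2 to 4 were below every hpCTL library and hp708 replicate 1 above every one. The log2 fold change was -0.40 (SE 0.21, unadjusted p = 0.0993, FDR 0.714 by edgeR), and -0.94 without hp708 replicate 1 (SE 0.19, unadjusted p = 0.00125, FDR 0.0927 by edgeR). Without hp708 replicate 4 it was -0.20 (unadjusted p = 0.252 by edgeR), and with surrogate variables from CPM -0.62. With no surrogate variables it was -0.47, and -0.12 once the mean log2 CPM of the subiculum and cortex markers was added as covariate (unadjusted p = 0.666 by edgeR). Kctd16 was 6.14, 7.56, 7.10 and 8.60 CPM in hpCTL and 8.84, 5.87, 10.1 and 8.30 CPM in hp708, with overlapping groups and a log2 fold change of 0.22 (SE 0.12, FDR 0.737 by edgeR). It was 0.01 without hp708 replicate 1, and 15.2% of the exon length of Kctd16 overlaps an opposite-strand gene. Kctd12 ranged from 178 to 212 CPM, with a log2 fold change of 0.03.

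**Figure D3:**
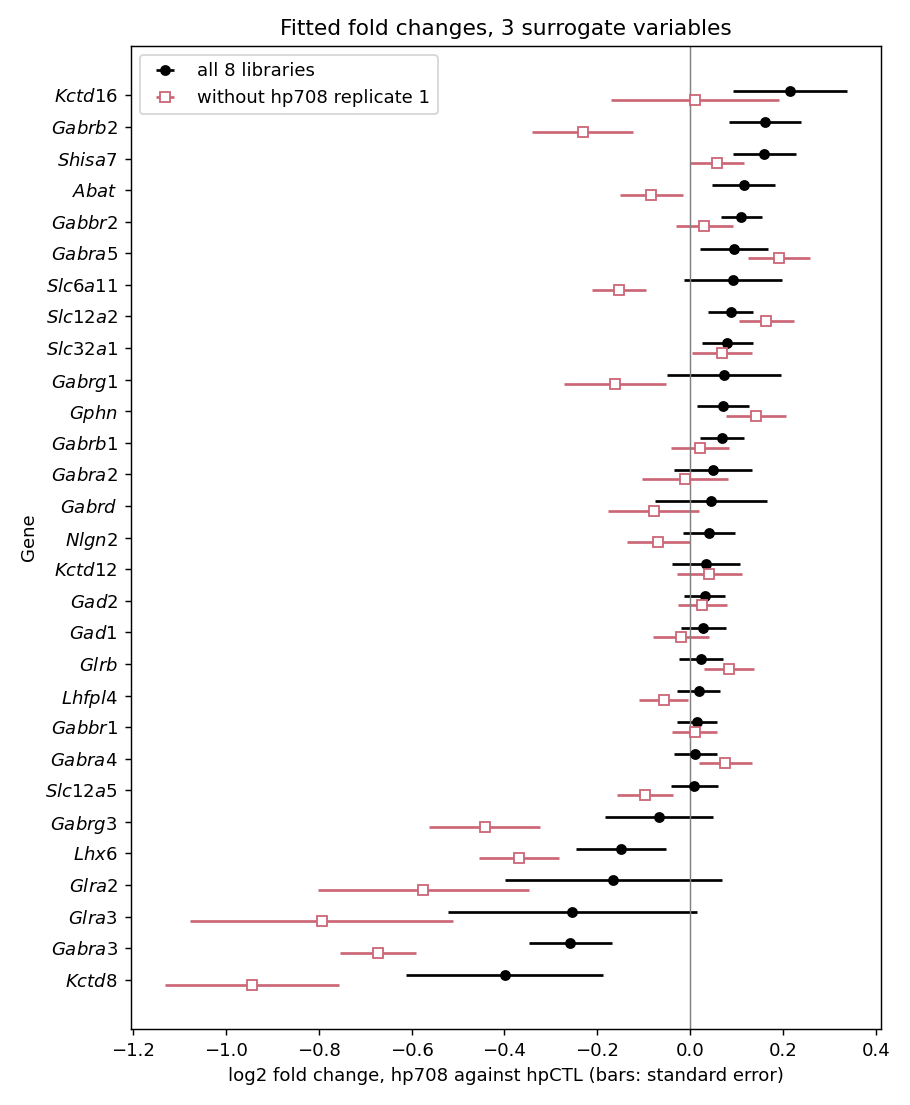
Fitted log2 fold change, hp708 against hpCTL, of each of the 29 genes with its standard error (bars), for all 8 libraries (black circles) and without hp708 replicate 1 (open squares). With all libraries the values lie between -0.40 (Kctd8) and 0.22 (Kctd16); without hp708 replicate 1 they reach -0.94 for Kctd8.

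The genes of GABA synthesis and handling were close to level. Gad1 and Gad2 encode the larger and the smaller glutamate decarboxylase. Gad1 was 308, 320, 296 and 303 CPM in hpCTL and 320, 279, 316 and 319 CPM in hp708, with a log2 fold change of 0.03 (SE 0.05, FDR 0.925 by edgeR). Gad2 was 141, 141, 139 and 138 CPM in hpCTL and 143, 135, 142 and 147 CPM in hp708, with a log2 fold change of 0.03 (SE 0.04, FDR 0.909 by edgeR). Their groups overlapped, and the CV of Gad2, 2.52%, was the lowest of the members, with only 0.22% of tested genes lower. The log2 ratio of Gad1 to Gad2 was 1.14 ± 0.04 and 1.12 ± 0.05 (SD, n = 4 each; difference -0.02, exact permutation test, two-sided, p = 0.6, adjusted 0.714).

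Slc32a1, the vesicular transporter that loads GABA and glycine, was 48.8, 53.8, 51.5 and 50.1 CPM in hpCTL and 56.7, 57.6, 50.2 and 53.9 CPM in hp708. Although hp708 replicates 1 and 2 were the highest, the groups overlapped (log2 fold change 0.08, SE 0.05, FDR 0.778 by edgeR). An opposite-strand gene covers 13.9% of its exon length. Abat, the GABA transaminase, was 178, 242, 228 and 241 CPM in hpCTL and 263, 206, 260 and 215 CPM in hp708. hp708 replicates 1 and 3 were the highest and hpCTL replicate 1 the lowest, with a log2 fold change of 0.12 (SE 0.07, unadjusted p = 0.136, FDR 0.745 by edgeR) that was -0.08 without hp708 replicate 1. Slc6a11, the GABA transporter of astrocytes, ranged from 105 to 146 CPM and had log2 fold changes of 0.09 with and -0.15 without hp708 replicate 1 (unadjusted p = 0.0311 and FDR 0.345 by edgeR for the latter, which was -0.02 without surrogate variables). The summed CPM of 10 astrocyte markers was 4777 to 5214 in hpCTL and 4985 to 5850 in hp708, and its part was not tested.

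Interneuron genes were read beside these. Lhx6, the transcription factor of interneurons born in the medial ganglionic eminence and carrier of the GCTCCTA match printed above, was 19.1, 21.3, 21.8 and 18.4 CPM in hpCTL and 19.7, 13.3, 20.8 and 16.1 CPM in hp708. hp708 replicates 2 and 4 were the lowest of all 8, and the others overlapped. Its log2 fold change was -0.15 (SE 0.10, FDR 0.764 by edgeR) and -0.37 without hp708 replicate 1 (SE 0.09, unadjusted p = 0.0032, FDR 0.14 by edgeR), and it was -0.10 without hpCTL replicate 2. Of 20 further interneuron markers, all tested, 3 were lower (Sst, Vip and Satb1) and 0 higher at an unadjusted p below 0.05, against 4.87% and 2.82% of tested genes. Without hp708 replicate 1, 6 were lower and 1 higher, against 6.72% and 5.44%. Their summed CPM was 671 to 727 in hpCTL and 578 to 730 in hp708, and none was at 0 in all libraries.

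The scaffold and auxiliary proteins hold GABA-A receptors opposite the release site. Shisa7 (ENSMUSG00000053550, chr7:4828550-4847895, minus strand, GRCm39), an auxiliary protein of the GABA-A receptor, was 192, 266, 253 and 245 CPM in hpCTL and 260, 221, 315 and 276 CPM in hp708. hp708 replicates 3 and 4 were above every hpCTL library and hp708 replicate 2 was below 3 of them, so the groups overlapped. The log2 fold change was 0.16 (SE 0.07, unadjusted p = 0.0481, FDR 0.648 by edgeR), 0.06 without hp708 replicate 1, 0.06 without hpCTL replicate 1 (unadjusted p = 0.279), and 0.17 without surrogate variables (unadjusted edgeR p 0.223). Gphn, which encodes gephyrin, was 77.9, 75.4, 74.5 and 69.5 CPM in hpCTL and 72.5, 72.5, 80.3 and 89.2 CPM in hp708. Only hp708 replicates 3 and 4 exceeded all hpCTL libraries (log2 fold change 0.07, SE 0.06, FDR 0.817 by edgeR; 0.14 without hp708 replicate 1 and 0.03 without hp708 replicate 4), and 6.35% of its exon length overlaps another gene. Nlgn2, the adhesion protein neuroligin 2, ranged from 202 to 252 CPM, and Lhfpl4, which links GABA-A receptors to it, from 119 to 143 CPM, with log2 fold changes of 0.04 and 0.02.

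Glycine receptors share gephyrin with GABA-A receptors. Their beta subunit gene Glrb was steady, between 149 and 169 CPM with a CV of 4.51%, while the alpha subunit genes were low. Glra2 was 7.85, 7.48, 8.61 and 7.85 CPM in hpCTL and 8.63, 6.78, 8.06 and 3.55 CPM in hp708. The low value of hp708 replicate 4 stood apart, and hp708 replicate 1 was highest of all. Glra3, counted at 31 reads in its lowest library, was 3.89, 3.19, 4.10 and 3.42 CPM in hpCTL and 4.60, 2.78, 2.98 and 1.28 CPM in hp708. Here hp708 replicates 2 to 4 were below every hpCTL library, again with hp708 replicate 1 above. The log2 fold changes were -0.17 (SE 0.23) for Glra2 and -0.25 (SE 0.27) for Glra3, and without hp708 replicate 1 they were -0.57 (SE 0.23, FDR 0.367 by edgeR) and -0.79 (SE 0.28, FDR 0.314 by edgeR). Without hp708 replicate 4 both turned, to 0.03 each, and without hpCTL replicate 3 they were 0.01 and 0.06.

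Gabra3, Kctd8 and Glra3 were the 3 members (10.3%) whose ranges did not overlap between hpCTL and hp708 once hp708 replicate 1 was left out, against 4.92% of tested genes (3.12% counting only those lower in hp708). In these 3 genes hp708 replicate 1 lay above every other library. hp708 replicates 2 to 4 also had the lowest sums of subiculum and cortex markers. hpCTL replicate 1 had a sum of 223, next to 219 in hp708 replicate 4, but higher levels of these genes. They were 60.0, 4.82 and 3.89 CPM in hpCTL replicate 1 and 38.9, 2.15 and 1.28 CPM in hp708 replicate 4. The part of these markers was not tested.

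**Figure D4:**
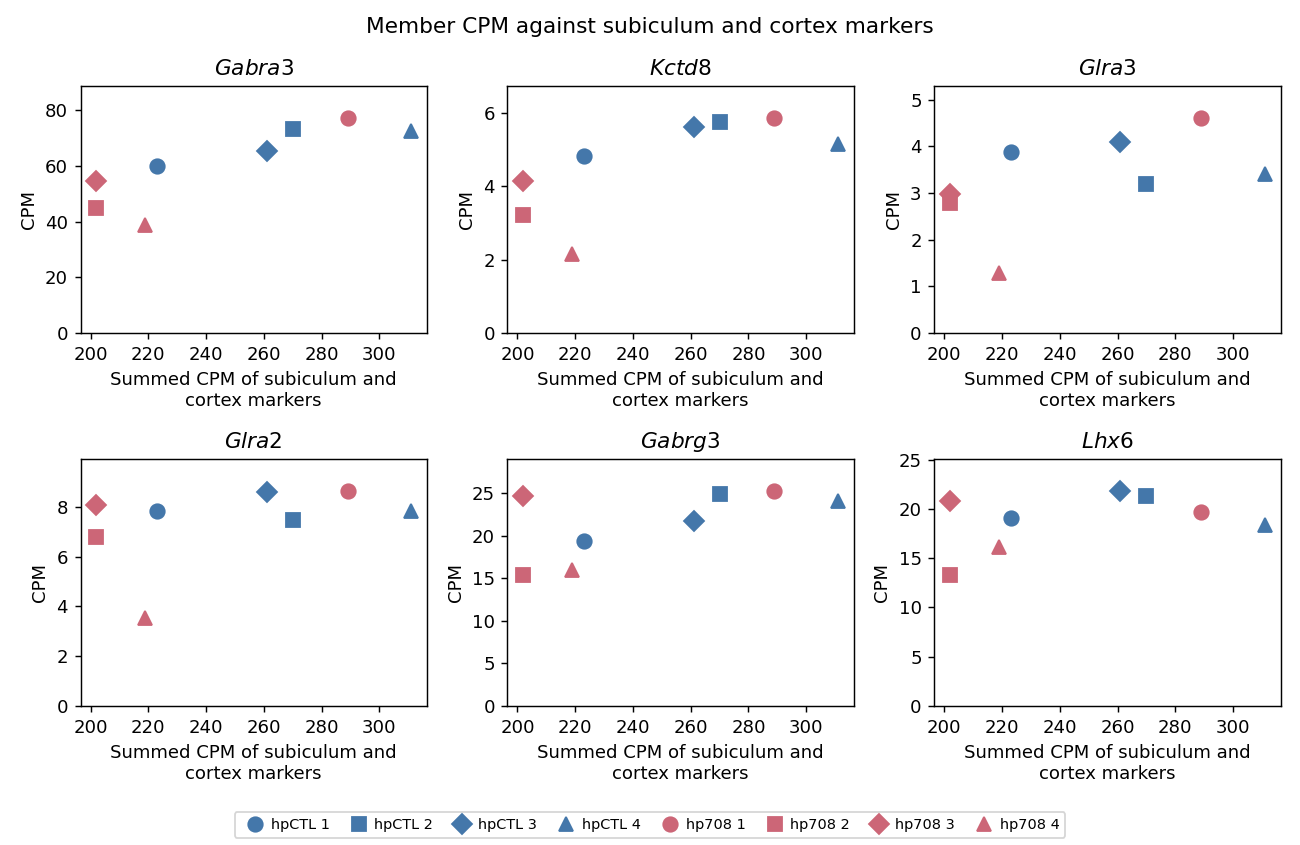
CPM of Gabra3, Kctd8, Glra3, Glra2, Gabrg3 and Lhx6 in each library against the summed CPM of 10 subiculum and cortex markers, with hpCTL in blue, hp708 in red and the shape giving the replicate. hp708 replicates 2 to 4 sit at the left (202, 202 and 219), with the lowest Gabra3, Kctd8 and Glra3 values, and hp708 replicate 1 sits among the hpCTL libraries at 289. hpCTL replicate 1 lies next to the left group at 223, with higher values of these genes.

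The chloride transporters set the driving force through the GABA-A receptor: Slc12a2 (NKCC1) brings chloride in and Slc12a5 (KCC2), found in neurons, takes it out. Slc12a2 was 69.9, 81.9, 79.9 and 97.8 CPM in hpCTL and 95.3, 133, 69.6 and 82.1 CPM in hp708. hp708 replicate 2 was highest and hp708 replicate 3 lowest, so the groups overlapped fully. The log2 fold change was 0.09 (SE 0.05, FDR 0.73 by edgeR) and 0.16 without hp708 replicate 1 (unadjusted p = 0.0255, FDR 0.316 by edgeR). It was 0.21 without surrogate variables, and 0.40 without them but with the mean log2 CPM of the subiculum and cortex markers as covariate. It was -0.00063 without both surrogate variables and hp708 replicate 2.

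Slc12a5 was 389, 508, 470 and 480 CPM in hpCTL and 477, 389, 503 and 482 CPM in hp708, with hpCTL replicate 1 and hp708 replicate 2 lowest and the groups overlapping. Its log2 fold change was 0.01 (SE 0.05, FDR 0.978 by edgeR). The log2 ratio of Slc12a5 to Slc12a2 was 2.49 ± 0.15 in hpCTL and 2.32 ± 0.56 in hp708 (SD, n = 4 each), a difference of -0.17 (exact permutation test, two-sided, p = 0.714, adjusted 0.714), and 0.09 without hp708 replicate 2. The library with the highest Slc12a2 and the lowest ratio, hp708 replicate 2, also had the highest choroid plexus marker sum, 4440 CPM. The hpCTL library with the highest Slc12a2, replicate 4, had the highest sum of its group at 2079 CPM. None of the 8 markers was at 0 in all libraries, 0 of 8 passed an unadjusted p below 0.05, and their part in the Slc12a2 values was not tested. The summed CPM of 9 oligodendrocyte markers was also highest in hp708 replicate 2, at 4936, against 2631 to 3708 in the other libraries, and its part was not tested either.

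**Figure D5:**
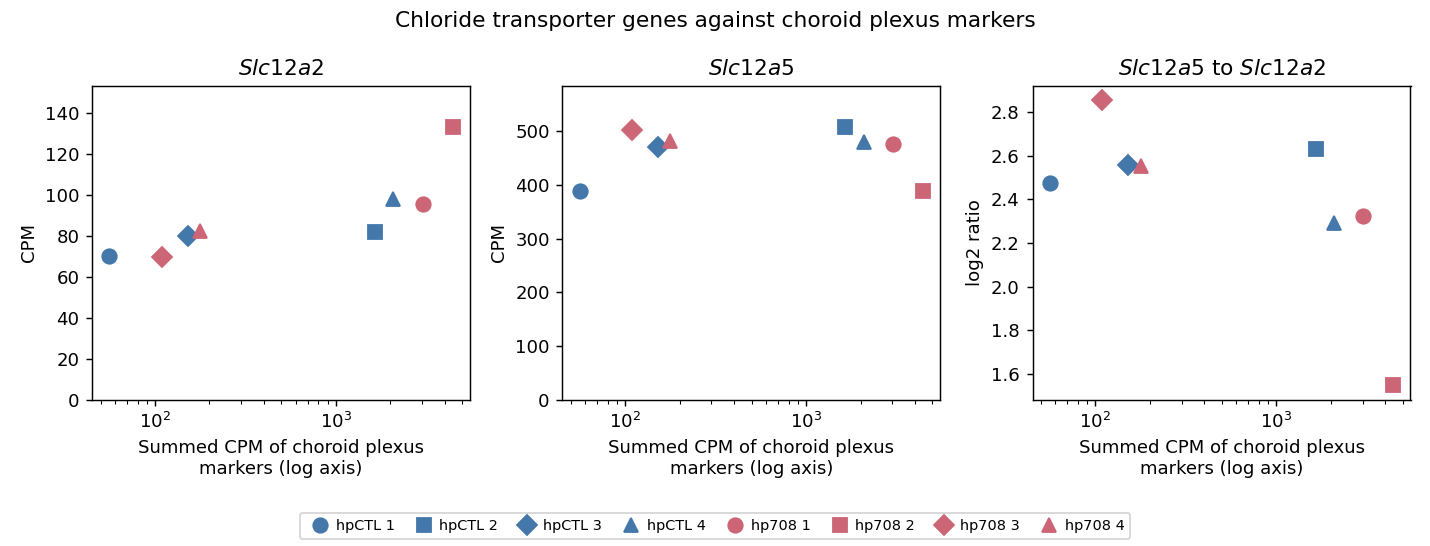
CPM of Slc12a2 and Slc12a5 and their log2 ratio in each library against the summed CPM of 8 choroid plexus markers (log axis), with hpCTL in blue, hp708 in red and the shape giving the replicate. hp708 replicate 2 lies at the far right, at 4440, with the highest Slc12a2 value (133 CPM).

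Of 42 further genes of inhibitory synapses, GABA handling and chloride balance, 36 were tested, and 1 was higher and 1 lower in hp708 at an unadjusted p below 0.05 (2.82% and 4.87% of tested genes), while 0 passed the FDR in edgeR's test. Iqsec3, a partner of gephyrin, was 188, 244, 241 and 229 CPM in hpCTL and 261, 191, 268 and 296 CPM in hp708 (log2 fold change 0.17, SE 0.05, unadjusted p = 0.0158, FDR 0.55 by edgeR). The groups overlapped, with the lowest values in hpCTL replicate 1 and hp708 replicate 2, as for Shisa7, Gabbr2 and Gabrb2. These libraries also had the highest mitochondrial share (4.07% of counts in both), the highest share of counts in the 100 most abundant genes (16.7% and 16.9%), and Malat1 at 262 and 297 CPM, against 306 to 394 CPM in the others. The part of RNA quality was not tested. Plcl2, a phospholipase C-like protein, was 62.8, 54.5, 54.0 and 58.9 CPM in hpCTL and 50.7, 47.4, 49.9 and 51.2 CPM in hp708, and its groups did not overlap. Its log2 fold change was -0.18 (SE 0.06, unadjusted p = 0.0174, FDR 0.561 by edgeR). Without hp708 replicate 1, 3 of the 36 were higher and 4 lower, against 5.44% and 6.72% of tested genes. The 6 genes not tested, Gabrp, Gabrr1, Gabrr3, Glra1, Glra4 and Slc6a5, did not pass the filter on low counts.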

How the data were processed

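The authors deposited a table of raw counts per gene from polyadenylated RNA of 8 hippocampi. Per the labels and the study's methods, reads were aligned with STAR 2.7.8a to GRCm39 and counted with featureCounts 1.6.4 on a GENCODE annotation. The table was used as deposited, with symbols from GENCODE. CPM used library sizes scaled by TMM. The main test was edgeR 4.0.16's quasi-likelihood test (the legacy fit, as in the edgeR version of the study) after filterByExpr, with 3 surrogate variables estimated from counts by sva 3.50.0, over all 17252 genes that passed, with Benjamini-Hochberg adjustment. The study's methods give 3 surrogate variables, but not whether counts or CPM were their input, and name likelihood ratio tests, while a legend names the quasi-likelihood test. Fitted changes are log2 fold changes of hp708 against hpCTL. Ratios used a prior count of 2 and exact permutation tests. DESeq2 1.42.0 and other settings were alternatives. The marker covariate was the mean log2 CPM of the tested subiculum and cortex markers, fitted without surrogate variables. The members and the other gene lists were chosen with earlier results of these data known.

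Members were given by library where they were the 8 with the lowest p, had groups that did not overlap, or were Gad1, Gad2, Slc32a1, Slc12a2, Slc12a5 or Gphn. Gabrg3, Glra2, Glra3 and Lhx6 were added after their values without hp708 replicate 1 were seen. Of the other inhibitory genes, those at an unadjusted p below 0.05 were named. The fit was tested on simulated data. Total counts of 22606824 to 28462428 per library limit the precision for low genes. Replicate numbers were not used as pairs in the main fit, and the labels do not say whether they mark pairs. Each replicate is a separate mouse per the study's methods. Seed matches were sought in the longest 3' UTR of each gene on GRCm39, and the mature microRNA came from a RefSeq table on GRCm38.p6.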

Additional observations from a re-analysis of the deposited data

Results flagged for a closer look

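In 92 groups of 4 values, Dixon's test at the 95% level marked 4, while chance marks about 4.6, and the 4 came from 2 libraries. hpCTL replicate 1 stood apart in Gabrb2 (26.3 CPM, the other hpCTL libraries 59.9 to 64.9), in Gabbr2 (226 CPM, the others 285 to 292) and, with it, in the log2 ratio of Gabbr1 to Gabbr2 (1.6, the others 1.18 to 1.24). hp708 replicate 2 stood apart in Gad1 (279 CPM, the other hp708 libraries 316 to 320).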

How the results depend on the processing

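In edgeR and DESeq2 alike, 0 members passed the FDR under the 14 settings that kept every library, against at most 0.736% of tested genes. At an unadjusted p below 0.05, members higher in hp708 fell from 2 to 0 with 0, 1 or 2 surrogate variables, the subiculum and cortex markers as covariate, the likelihood ratio test with 3 or 0 surrogate variables, DESeq2 with 0, no filter, at least 10 counts in every library, or the replicate block. The share of tested genes that was higher, 2.82% in the main fit, was 0.858%, 0.922%, 1.12%, 1.65%, 2.05%, 0.742%, 1.02%, 2.21%, 2.47% and 0.614% in that order. With surrogate variables from CPM, a setting chosen after the data were seen, 3 were higher and 4 lower (10.3% and 13.8% of members, against 5.06% and 7.1% of tested genes). Members lower in hp708 went from 1 to 0 with 0 or 1 surrogate variables, the marker covariate, the likelihood ratio test or DESeq2 with 0, and the replicate block. In those settings 0.951%, 2.52%, 0.858%, 0.817%, 0.817% and 0.962% of tested genes were lower, in that order, against 4.87% in the main fit. The lower members came to 2 with 2 surrogate variables (2.98% of tested genes), and to 4 with at least 10 counts in every library (3.25%). The other inhibitory genes went from 2 to 1 with 0 or 1 surrogate variables, the marker covariate, the likelihood ratio test with 0 and the replicate block. The shares of tested genes in these settings are those given above. They came to 3 with the non-legacy quasi-likelihood fit (2.81% of tested genes higher and 4.78% lower) or no filter (2.21% and 3.66%). With surrogate variables from CPM they came to 6 (5.06% and 7.1%). The causes were not tested.

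Over the 17 named genes, 229 of 238 values kept direction and side of the threshold. Those that turned were Gabra3 (0.011), Gabrg3 (0.076) and Gphn (-0.032) with the marker covariate, Gabrb2 (-0.073), Abat (-0.035), Gad1 (-0.0047) and Slc12a5 (-0.080) with at least 10 counts in every library, and Slc12a5 with 2 surrogate variables (-0.0031) and with those from CPM (-0.012). Same-numbered libraries had correlations of -0.041 to 0.018 between their deviations from the group means. The labels do not say whether the numbers mark pairs or a shared batch. The replicate block left 0 members at an unadjusted p below 0.05, against 0.614% of tested genes higher and 0.962% lower.

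Leaving out each library in turn, with 3 or 0 surrogate variables, gave 0 to 1 members past the FDR (0 to 0.321% of tested genes). At an unadjusted p below 0.05 it gave 0 to 2 higher and 0 to 7 lower, the 7 without hp708 replicate 1 (6.72% of tested genes). With 0 surrogate variables only the 2 lower without hp708 replicate 1 were called, against 0.721% to 1.86% of tested genes higher and 0.652% to 2.05% lower. The other inhibitory genes ranged from 1, for example without hpCTL replicate 3 (0.9% higher and 2.08% lower), to 7, without hp708 replicate 1 (5.44% and 6.72%). Members without overlap were 0 to 3 (3 without hp708 replicate 1, 2 without replicate 2 of that group and 1 without its replicate 3, against 4.92%, 6.17% and 3.45% of tested genes). In fits with 3 surrogate variables the higher members fell to 0 without hpCTL replicate 1, hpCTL replicate 3 or hp708 replicate 3, and to 1 without hpCTL replicate 4, against 3.54%, 0.9%, 3.49% and 2.26% of tested genes. They stayed at 2 without hpCTL replicate 2 or hp708 replicate 1, 2 or 4 (2.88%, 5.44%, 5.37% and 2.75%). The lower members fell to 0 without hpCTL replicate 2, hpCTL replicate 3 or hp708 replicate 4 (4.16%, 2.08% and 5.71% of tested genes), and came to 4 without hpCTL replicate 1 (6.13%), 3 without hpCTL replicate 4 (3.83%), and 2 without hp708 replicate 2 or 3 (6.64% and 4.53%). Of 272 values of the named genes, 243 kept direction and side, 28 turned, and 1 newly passed the FDR (Gabra3 without hp708 replicate 1). The log2 fold changes of genes that turned ran for Gabrb2 from -0.23 to 0.32, Slc12a2 from -0.000629 to 0.33, Abat from -0.083 to 0.19, Gad1 from -0.019 to 0.059, Slc12a5 from -0.098 to 0.083, Gabrg3 from -0.44 to 0.019, Glra2 from -0.57 to 0.030 and Glra3 from -0.79 to 0.063. The log2 ratios, as hp708 minus hpCTL, ran for Slc12a5 to Slc12a2 from -0.35 to 0.087, Gad1 to Gad2 from -0.031 to 0.0082, Gabbr1 to Gabbr2 from -0.18 to -0.011 and Gabra5 to Gabra2 from -0.022 to 0.16. The median of the members ran from -0.02 to 0.08.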

Other observations

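Further marker lists were counted at an unadjusted p below 0.05 in edgeR's test, where 2.82% of tested genes were higher and 4.87% lower with all libraries, and 5.44% and 6.72% without hp708 replicate 1. With all libraries, 3 of 5 CA3 markers, 1 of 5 CA2 markers and 1 of 10 dentate granule cell markers were higher in hp708, and 6 of 8 microglia markers lower. Of 10 thalamus and habenula markers tested, 1 was higher and 1 lower, and 1 of 10 astrocyte markers was higher. None of 6 CA1, 9 oligodendrocyte or 7 endothelial markers reached that p. Without hp708 replicate 1, 7 of 9 oligodendrocyte, 3 of 5 CA3, 3 of 5 CA2, 4 of 10 dentate, 2 of 10 thalamus and habenula, 2 of 10 astrocyte and 1 of 6 CA1 markers were higher. In the same fit, 2 CA1, 2 dentate, 2 choroid plexus, 1 thalamus and habenula and 1 astrocyte markers were lower, and 0 of 8 microglia and 0 of 7 endothelial markers reached that p. The part of these cell types in the inhibitory genes was not tested.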
